A study of Mus musculus with 28 samples.

Results

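The genes described here are 10 imprinted genes listed together as paternally expressed: Peg10, Sgce, Mest, Peg3, Usp29, Zim1, Snrpn, Ndn, Plagl1 and Impact. They were chosen by name, all 10 were found among the 37991 genes of the count files, and all 10 passed the filter of 16 reads over all libraries. Reads of hydroxymethylated DNA were also available over 6 of their imprinting control regions (ICRs), those of Peg10, Mest, Peg3, Snrpn, Plagl1 and Impact.

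Gene expression was measured by stranded RNA-seq in mouse embryonic stem cells of strain 129S4/SvJae, kept in the serum-free medium N2B27 with 2i and LIF, which holds the cells in the naïve state. There were 3 genotypes. WT cells were of line J1, DNMT TKO cells lack Dnmt1, Dnmt3a and Dnmt3b (labelled DNMT KO), and TET TKO cells lack Tet1, Tet2 and Tet3 (labelled TET KO). Each genotype was transduced with an empty hairpin vector (shEmpty) or with a hairpin against Kap1 (shKap1, labelled shKAP1), selected with puromycin and collected after 5 days. WT and DNMT TKO had n = 3 and TET TKO n = 2 for each hairpin, with 18108431 to 29373696 reads on genes per library. Each genotype was 1 line and the mutant lines came from other laboratories, so that line and genotype cannot be told apart. Replicates were independent experiments on the same lines. The 5hmC data came from hMeDIP-seq of WT cells with either hairpin and were usable for 1 replicate. H3K4me3 and H3K27me3 peaks came from 2 ChIP-seq replicates each.

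An imprinted gene is transcribed mainly from the allele of 1 parent. At most ICRs the maternal copy carries DNA methylation laid down in the oocyte, and the paternal copy is unmethylated and active. After fertilization the methylated copy is recognised by KRAB zinc finger proteins such as ZFP57 and ZFP445, which bring in KAP1 (the product of Trim28), H3K9 methylation and DNA methyltransferases. TET enzymes oxidise 5-methylcytosine to 5-hydroxymethylcytosine (5hmC), a step of active demethylation. Total RNA of a gene, as counted here, does not say which allele was read. Zim1 of the Peg3 cluster is known as a maternally expressed gene, so the name of the group does not hold for it.

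The members fell in 6 places of the genome (build mm9). Peg10 (ENSMUSG00000092035, chr6:4697306-4710517, plus strand) and Sgce (ENSMUSG00000004631, chr6:4624350-4697204, minus strand) are divergent genes whose starts lie 102 bases apart within 1 ICR, chr6:4696304-4699370. Mest (ENSMUSG00000051855, chr6:30673547-30698457, plus strand) holds its ICR inside the gene, at chr6:30685841-30689965. Peg3 (ENSMUSG00000002265, chr7:6656603-6683132, minus strand) starts inside its ICR at chr7:6680068-6685920. Zim1 (ENSMUSG00000002266, chr7:6628154-6649161, minus strand) starts 30.9 kb from that region, and the annotated Usp29 model (ENSMUSG00000051527, chr7:6913871-6916480, plus strand), of 1 exon, starts 228.0 kb from it. Snrpn (ENSMUSG00000000948, chr7:67127388-67285105, minus strand) has 1 of its 2 annotated starts in its ICR, chr7:67148027-67150169. Ndn (ENSMUSG00000033585, chr7:69493163-69494814, plus strand) lies 2343.0 kb from the same region. Plagl1 (ENSMUSG00000019817, chr10:12810497-12851500, plus strand) has 9 of 12 annotated starts inside its ICR at chr10:12809929-12812145. Impact (ENSMUSG00000024423, chr18:13130761-13151457, plus strand) starts 596 bases before its ICR, chr18:13131357-13133257, which lies within the gene.

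The hexamer TGCCGC, the sequence that ZFP57 is known to bind when methylated, occurred in all 6 ICRs when both strands were searched. Its number was 3 in the Peg10 region (0.98 per kb), 12 in Mest (2.91 per kb), 8 in Peg3 (1.37 per kb), 10 in Snrpn (4.67 per kb), 6 in Plagl1 (2.71 per kb) and 5 in Impact (2.63 per kb). Cut into windows of 300 bases, the 6 regions held the hexamer in 22 of 62 windows (35.5%). Among 32851 RefSeq promoters of the same length (GRCm38.p6) 11.6% held it, and 16.9% of the windows of the other ICRs did, or 27.6% without the 2 longest of them. The Airn region, with 5.89 per kb, held more per length than any of the 6. The window of 300 bases with the most matches outside annotated untranslated exons is shown for 5 of the regions, since these letters are where the ICRs are known to be recognised. Each is the plus strand of mm9, 5′ to 3′, and capitals mark TGCCGC or its reverse complement GCGGCA. No window touched an annotated exon, and all lay in introns of the gene they are named for.

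Peg10, chr6:4697777-4698076: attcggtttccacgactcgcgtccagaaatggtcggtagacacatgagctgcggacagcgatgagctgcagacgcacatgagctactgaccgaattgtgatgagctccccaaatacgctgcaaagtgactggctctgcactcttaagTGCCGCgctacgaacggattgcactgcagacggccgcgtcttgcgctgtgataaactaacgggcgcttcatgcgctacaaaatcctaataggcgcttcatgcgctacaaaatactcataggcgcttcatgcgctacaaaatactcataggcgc

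Mest, chr6:30687414-30687713: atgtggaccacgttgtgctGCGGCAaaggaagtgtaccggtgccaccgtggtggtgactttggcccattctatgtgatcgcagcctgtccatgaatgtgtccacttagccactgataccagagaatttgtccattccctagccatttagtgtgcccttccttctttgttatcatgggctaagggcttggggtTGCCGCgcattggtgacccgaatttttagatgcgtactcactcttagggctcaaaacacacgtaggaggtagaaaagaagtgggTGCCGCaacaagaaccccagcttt

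Peg3, chr7:6682151-6682450: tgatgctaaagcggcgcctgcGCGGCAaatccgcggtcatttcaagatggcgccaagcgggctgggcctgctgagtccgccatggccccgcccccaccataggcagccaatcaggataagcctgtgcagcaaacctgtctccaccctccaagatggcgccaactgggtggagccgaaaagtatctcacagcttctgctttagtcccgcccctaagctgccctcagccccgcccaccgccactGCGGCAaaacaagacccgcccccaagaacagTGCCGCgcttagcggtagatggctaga

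Snrpn, chr7:67149218-67149517: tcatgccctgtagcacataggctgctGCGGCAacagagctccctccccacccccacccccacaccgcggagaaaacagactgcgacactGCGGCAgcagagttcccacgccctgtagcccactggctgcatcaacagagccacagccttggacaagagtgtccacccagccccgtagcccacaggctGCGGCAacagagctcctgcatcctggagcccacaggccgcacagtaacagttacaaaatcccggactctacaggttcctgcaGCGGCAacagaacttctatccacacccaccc

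Plagl1, chr10:12810831-12811130: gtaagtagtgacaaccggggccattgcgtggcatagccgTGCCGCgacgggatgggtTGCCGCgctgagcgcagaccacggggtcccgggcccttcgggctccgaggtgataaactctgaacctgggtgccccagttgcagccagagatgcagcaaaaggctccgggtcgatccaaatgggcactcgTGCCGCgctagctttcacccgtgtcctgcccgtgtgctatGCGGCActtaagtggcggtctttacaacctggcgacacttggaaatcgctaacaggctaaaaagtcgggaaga

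The windows were chosen for the hexamer, so their counts of 1 in Peg10, 3 in Mest, 3 in Peg3, 4 in Snrpn and 4 in Plagl1 are descriptions. In Snrpn all 4 matches lay on the minus strand, the strand of the gene. The windows of Peg10, Peg3 and Plagl1 were rich in CpG, with 26, 20 and 25 CpG in 300 bases, against 11 in each of the Mest and Snrpn windows. A match says only that the letters are there, and binding of ZFP57 was not measured here.

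Chromatin at these sites was alike in that every one of the 6 ICRs overlapped a KAP1 region and at least 1 H3K4me3 region, these being the fixed sets of regions over which the 5hmC reads were counted. Of these 6, the Peg10 ICR alone overlapped H3K9me3 regions dependent on KAP1, with 3 regions. Outside the 6, the Gnas, Grb10, Trappc9, H19, IG-DMR and Nhlrc1 ICRs overlapped such regions too. An H3K27me3 region overlapped the Mest ICR alone among the 6, and several of the other ICRs. A site without a called region may still carry the mark. Counting promoters as 1 kb on each side of any annotated start, 7 of the 10 members had a KAP1 region, 8 an H3K4me3 region, 2 an H3K9me3 region dependent on KAP1 (Peg10 and Sgce, which share it) and 1 an H3K27me3 region (Mest). The share over the promoters of all genes was not counted, so these counts are descriptions. Members with more annotated starts, from 1 for Usp29 to 12 for Plagl1, had more chances to meet a region. Peg10 and Sgce, which start 102 bases apart, were counted separately. Ndn had H3K4me3 without a KAP1 region, and Usp29 and Zim1 had no region of these sets at their annotated starts. For Usp29 this is the start of its model of 1 exon. Whether Usp29 is also transcribed from another start was not examined, and the promoter counts depend on it. The Impact promoter met the KAP1 region only at its edge, and lost it when 25% of the promoter had to be covered.

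In the peaks called per replicate, Peg10 and Sgce shared an H3K4me3 promoter peak with scores of 247.4 and 443.8, below and above the median scores of 350.4 and 375.5 of the respective files. Ndn scored 260.2 and 583.7. Zim1 had a peak in replicate 2 alone, with 148.1, below the median. Impact scored 2422 and 3100, Snrpn 2128 and 3100, and Mest 1791 and 3100, where 3100 was a score shared by many peaks of replicate 2. Mest was also the member with H3K27me3 peaks above the median in both replicates, with scores of 207 against a median of 99 and 391 against a median of 112. Ndn had one above the median in replicate 2 alone, with 160. Peaks below the median lay at Sgce in replicate 2, with 69, and at Plagl1 in replicate 1, with 29. These peaks come from whole populations and do not show which allele carries a mark.

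Without knockdown, WT cells transcribed the members at very different levels. Compared per length, as RPKM, which is CPM per kb of exon (mean ± SD, n = 3), Impact stood highest at 97.7 ± 10.8, then Mest at 69.1 ± 7.36, Snrpn at 50.9 ± 2.19, Peg10 at 34.2 ± 8.11 and Plagl1 at 30.1 ± 4.6. Peg10 and Plagl1 differed by less than the spread between libraries. Then followed Peg3 at 4.41 ± 0.597, Ndn at 2.46 ± 0.387, Sgce at 1.38 ± 0.453, Usp29 at 0.372 ± 0.0676 and Zim1 at 0.0991 ± 0.0276. Sgce thus stood far below Peg10 although both start in the same ICR. Zim1 had 7 to 11 reads in each WT shEmpty library and Usp29 had 18 to 32, so their values rest on few reads.

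**Figure D1:**
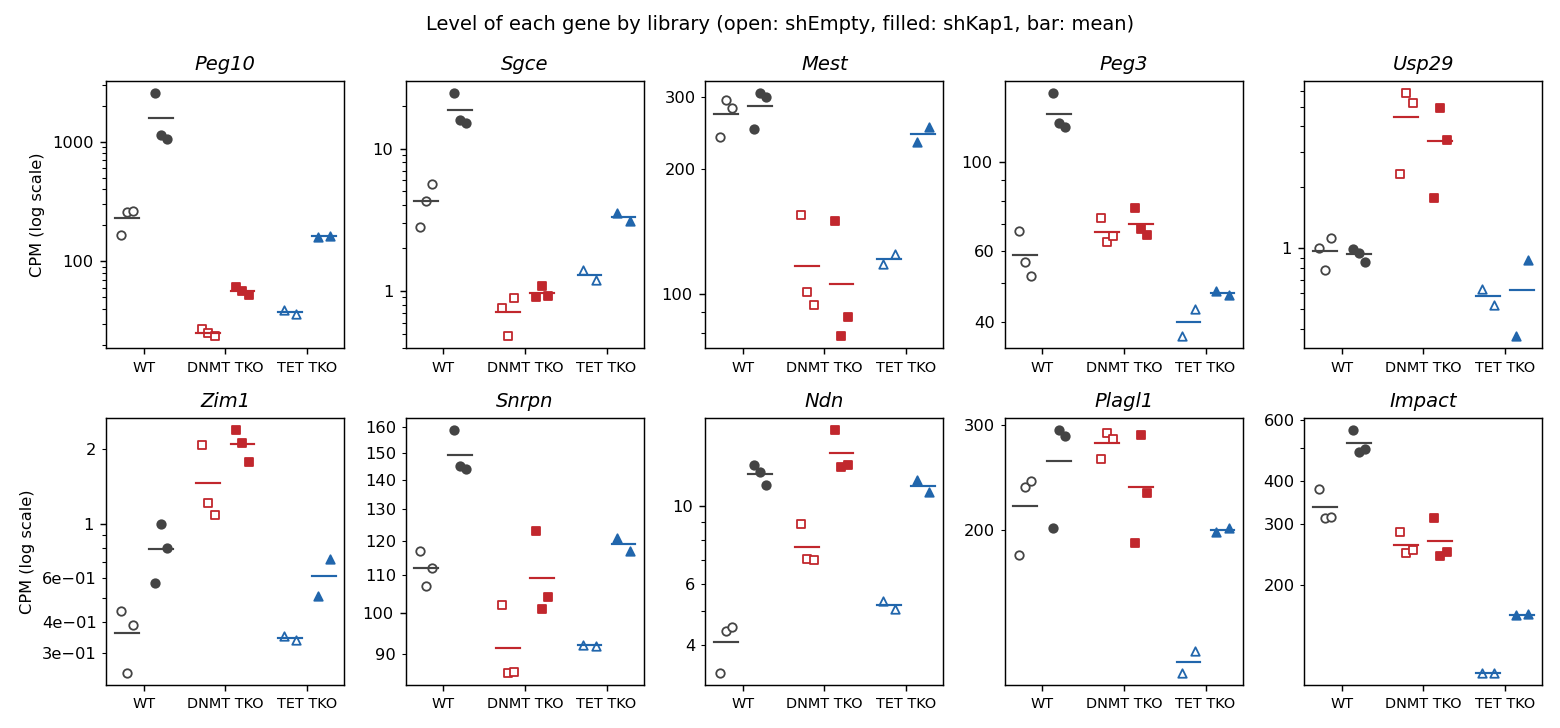
Level of each gene in every library, in CPM (reads of the gene relative to the reads on genes after TMM scaling of the libraries, log scale), by genotype; open symbols are shEmpty, filled symbols shKap1, and bars are group means. In WT all 3 shKap1 libraries lie above all 3 shEmpty libraries for Peg10, Sgce, Peg3, Zim1, Snrpn, Ndn and Impact, while those of Mest, Usp29 and Plagl1 overlap.

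The hairpin lowered its target in every line. Trim28 went from 1630 to 1990 CPM in WT shEmpty libraries to 149 to 190 CPM in shKap1, and from 1770 to 1900 to 163 to 168 CPM in TET TKO. In DNMT TKO it went from 1700 to 2090 to 327 to 506 CPM, a weaker fall (difference of the log2 changes 1.28 ± 0.21 SE, edgeR adjusted p = 8e-04). In DNMT TKO, Dnmt1, Dnmt3a and Dnmt3b transcripts were lower than in WT, by -1.65, -3.04 and -2.64 on the log2 scale. In TET TKO, Tet1 and Tet2 transcripts were lower by -1.49 and -2.16, and Tet3 stood at -0.031. The 9 pluripotency markers summed to 5480 to 5660 CPM in WT shEmpty and to 3120 to 3210 CPM in WT shKap1, with 4 of the 9 called down in WT, 2 in DNMT TKO and 2 in TET TKO. The 6 matched markers of the 2-cell state rose with knockdown in every line, from 14.3 to 27.5 up to 223 to 255 summed CPM in WT, from 6.5 to 22.1 up to 64.1 to 151 in DNMT TKO and from 9.8 to 11.1 up to 651 to 676 in TET TKO. For 5 of the 6 the effect was called larger in TET TKO than in WT. The 10 fibroblast markers summed to 5.28 to 7.4 CPM in the WT groups and to 7.08 to 9.31 CPM in TET TKO, and went from 7.62 to 10.1 CPM up to 14.2 to 14.8 CPM on knockdown in DNMT TKO, where 1 of 8 tested was called up. In WT knockdown 2 of these were called up and 1 down, and in TET TKO 0 up and 2 down. Up to 3 of them were at 0 in a group. The 7 trophoblast markers summed to 82 to 98.5 CPM in WT shEmpty and 77.9 to 95 CPM in WT shKap1, to 60.9 to 78.4 and 48.7 to 61.7 CPM in DNMT TKO, and to 71.8 and 49.9 to 53.3 CPM in TET TKO. On knockdown 2 of these 7 were called up and 1 down in WT, and 1 up and 1 down in each of the other lines. The 8 markers of endoderm and mesoderm ranged from 11.8 to 20.4 CPM over all groups, with 1 called up and 2 down on knockdown in WT, 1 either way in DNMT TKO, and in TET TKO 1 down with 0 up. The part of these shifts in the results below was not tested. The log2 change of Zfp57 was -0.27 ± 0.11 (SE) in WT on knockdown (adjusted p = 0.052), and Zfp445 rose by 0.28 ± 0.051 (adjusted p = 2e-04). Of 13 genes of imprint regulators, Trim28 and these included, 2 were called up in WT and 1 down. The 2 were Dnmt3a (1.15 ± 0.13, adjusted p = 5.2e-06) and Tet3 (1.80 ± 0.14, adjusted p = 1.8e-08), and the 1 was Trim28. Uhrf1, whose product guides maintenance methylation, fell by 0.99 on the log2 scale (adjusted p = 7.2e-11), just under 2-fold, and was named after its values were seen. The part of these changes in the 5hmC results was not tested. Between DNMT TKO and WT, both with shEmpty, edgeR called 1 of the 13 higher and 3, the knockout targets, lower. The shares of all genes were 8.23% and 8.05%. The 1 was Dppa3 (2.61 ± 0.35, adjusted p = 9.5e-05), named after its values were seen. Zfp57 was lower there by -0.64 ± 0.11 (adjusted p = 0.00015), under 2-fold. The part of these differences between the lines was not tested.

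On Kap1 knockdown in WT cells, 5 of the 10 members rose at least 2-fold. These were Peg10, Sgce, Peg3, Ndn and Zim1. A call here needs an adjusted p below 0.05 from the quasi-likelihood test of edgeR over 20321 genes and a change of at least 2-fold, and 10.8% of all genes tested were called up in this comparison (17.4% in either direction). Called down were 0 members by edgeR, by limma-voom and by DESeq2, where edgeR called down 6.54% of all genes. At an unadjusted p below 0.05 in edgeR 0 members fell, a threshold at which all genes were not counted. In 7 members the groups did not overlap, as in 54.4% of all genes. The median change of the members was 0.89 on the log2 scale, beside -0.0098 over all genes tested. Of the called genes, Peg10 and Sgce share an ICR, and Peg3 and Zim1 lie in the same cluster. Genes of the same cluster are not independent of each other. Counts of members beside shares of all genes, here and below, are therefore descriptions.

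Peg10, a gene derived from a retrotransposon and needed for the placenta, changed most. Its levels in WT were 166, 255 and 264 CPM with shEmpty, and 2540, 1130 and 1050 CPM with shKap1, in the order of replicates 1 to 3. The groups were far apart, and replicate 1 held both the lowest shEmpty and the highest shKap1 value. Within the numbers, the ratio was 15.3, 4.43 and 3.98. The fitted log2 change was 2.79 ± 0.31 (SE), 6.90-fold, with an adjusted p of 2.6e-05, and without shKap1 replicate 1 it was 2.28 ± 0.14. In that library Peg10 alone took 0.259% of the reads on genes.

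Sgce encodes ε-sarcoglycan, a membrane protein of the dystrophin complex. It stood at 2.83, 4.3 and 5.63 CPM in shEmpty and at 24.5, 16 and 15.1 CPM in shKap1. As for Peg10, replicate 1 was lowest without and highest with knockdown. The log2 change was 2.10 ± 0.22, 4.29-fold (adjusted p = 5.4e-07). Over the 16 libraries the log2 levels of Peg10 and Sgce correlated with r = 0.982, the highest value for Peg10 among 14049 genes compared. The next were Ptk7 at 0.978 and Emb at 0.976. These correlations describe libraries that share genotype and hairpin.

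At the Peg3 cluster, Peg3, a zinc finger protein gene, went from 67.5, 56.6 and 52.1 CPM to 148, 125 and 122 CPM. Each pair by number gave nearly the same ratio, 2.19, 2.21 and 2.34. The log2 change was 1.17 ± 0.098 (adjusted p = 4.1e-08). Zim1, another zinc finger gene of the cluster, had 8, 7 and 11 reads with shEmpty and 11, 23 and 15 with shKap1. Its log2 change was 1.17 ± 0.37 (adjusted p = 0.015). That call was lost without shEmpty replicate 2 (0.94, adjusted p = 0.075) and without shKap1 replicate 2 (0.97, adjusted p = 0.077). Usp29, of the family of ubiquitin-specific peptidases, had 18, 22 and 32 reads without and 19, 22 and 16 with knockdown, overlapping groups and a log2 change of -0.052 ± 0.45 (adjusted p = 0.94).

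At the Snrpn domain, Ndn, which encodes the MAGE family protein necdin, went from 3.33, 4.38 and 4.49 CPM to 13.2, 12.6 and 11.5 CPM. The log2 change of 1.59 ± 0.15 (adjusted p = 8.2e-08) came with groups far apart. Snrpn, which encodes a protein of small nuclear ribonucleoproteins, went from 117, 107 and 112 CPM to 159, 145 and 144 CPM. This was a small rise with no overlap between groups, a log2 change of 0.42 ± 0.078 (adjusted p = 0.00024), under the 2-fold limit. Magel2, a paternally expressed gene of the same domain that is no member, went from 11 reads over the 3 shEmpty libraries to 238 over the 3 shKap1 libraries, a log2 change of 4.68 ± 0.35 (adjusted p = 6.5e-09).

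Impact, which encodes a regulator of the translation kinase GCN2, rose from 378, 313 and 315 CPM to 563, 486 and 496 CPM, a log2 change of 0.62 ± 0.096 (adjusted p = 6.2e-05), also under 2-fold. Plagl1, a zinc finger transcription factor, stood at 181, 236 and 241 CPM and at 201, 294 and 287 CPM. Replicate 1 was the lowest in both groups, and the log2 change was 0.25 ± 0.16 (adjusted p = 0.25). Mest, a member of the α/β hydrolase fold family, stood at 240, 295 and 281 CPM and at 250, 306 and 299 CPM. Its log2 change of 0.067 ± 0.24 (adjusted p = 0.85) was within the spread between libraries, although its ICR carries a KAP1 region like the others. At any size, 7 members rose with an adjusted p below 0.05, beside 45.7% of all genes in either direction.

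**Figure D2:**
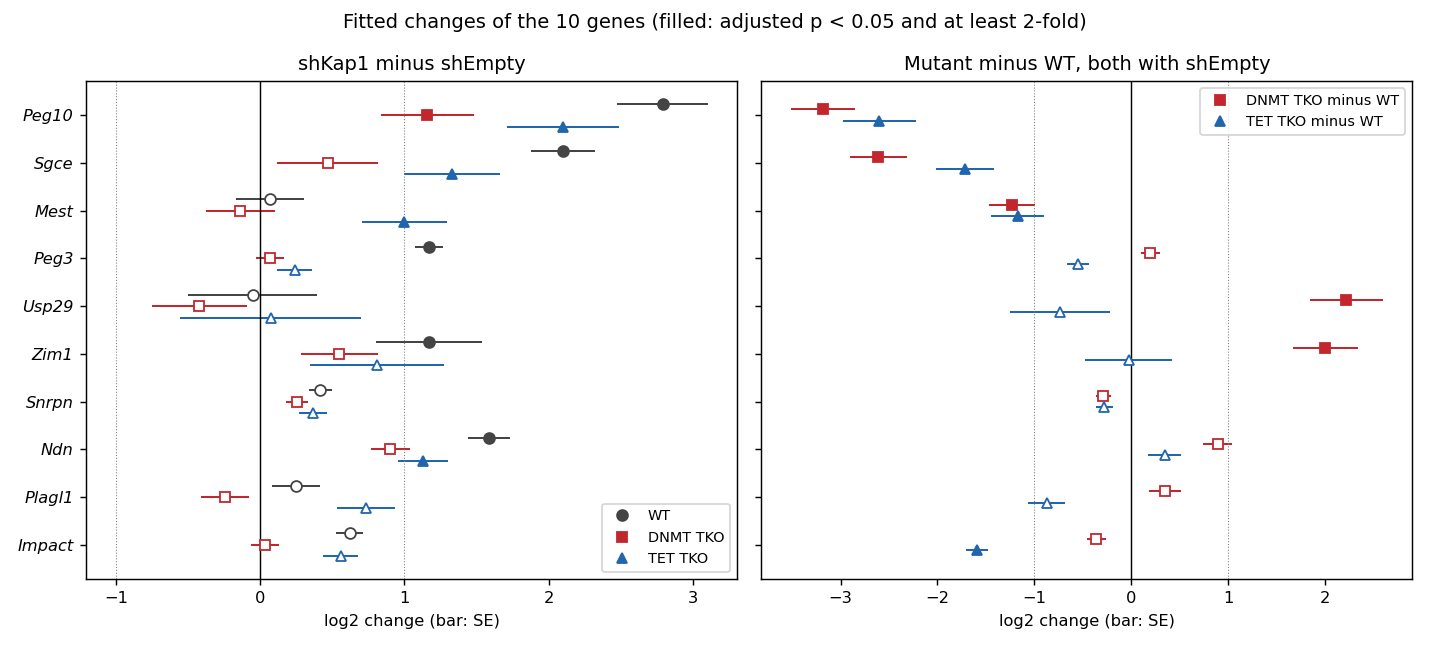
Fitted log2 changes of the 10 genes with their SE: on knockdown in each genotype (left) and between each mutant and WT with shEmpty (right); filled symbols are calls and dotted lines mark 2-fold. On knockdown, the DNMT TKO values of all 10 genes lie left of the WT values, of which Peg10, Sgce and Peg3 are called differences, and without knockdown Peg10, Sgce, Mest, Snrpn and Impact lie below 0 in both mutants.

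In DNMT TKO cells, knockdown moved Peg10 alone past the limits, where 10.1% of all genes were called up (12.5% in either direction). Called down were 0 members by edgeR, limma-voom and DESeq2, where edgeR called down 2.41% of all genes, and 0 members fell at an unadjusted p below 0.05. The groups of Peg10, Sgce and Ndn, 3 of the 10, did not overlap, as in 44.7% of all genes. Peg10 stood at 27, 25 and 23.6 CPM with shEmpty and at 60.7, 56.2 and 52 CPM with shKap1. The 3 ratios by number, 2.25, 2.25 and 2.2, were close to each other, and the log2 change was 1.16 ± 0.33 (adjusted p = 0.017). That call was lost with limma-voom (1.16, adjusted p = 0.051) and without shEmpty replicate 3 (1.12, adjusted p = 0.054). Ndn rose from 8.89, 7.08 and 7.02 CPM to 16.6, 13 and 13.2 CPM, a log2 change of 0.90 ± 0.14 (adjusted p = 5.7e-05), just under 2-fold. Snrpn rose by 0.26 ± 0.078 (adjusted p = 0.016), and at any size 3 members passed, beside 35.3% of all genes.

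The other members did not pass the test in DNMT TKO. Peg3 stood at 72.4, 63.4 and 65.5 CPM and at 76.8, 68 and 65.8 CPM, a log2 change of 0.066 ± 0.098 (adjusted p = 0.65). Sgce had 14 to 23 reads without and 19 to 25 reads with knockdown, a log2 change of 0.47 ± 0.35 (adjusted p = 0.33). The log2 change was 0.035 ± 0.096 for Impact and -0.14 ± 0.24 for Mest, with overlapping groups. It was -0.24 ± 0.16 for Plagl1, -0.42 ± 0.33 for Usp29 and 0.55 ± 0.27 for Zim1, none past the test.

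The difference of the knockdown effect between DNMT TKO and WT was tested as an interaction term. It was called for 3 of the 10 members, all with the smaller rise in DNMT TKO, where 2.48% of all genes were called in that direction, 4.66% in the other and 7.14% in either. Peg3 differed by -1.10 ± 0.14 (adjusted p = 2.5e-05), Sgce by -1.63 ± 0.42 (adjusted p = 0.011) and Peg10 by -1.62 ± 0.44 (adjusted p = 0.026). Sgce and Peg10 share an ICR, so their calls are not independent of each other. Ndn (-0.69 ± 0.20, adjusted p = 0.021) and Impact (-0.59 ± 0.14, adjusted p = 0.0064) differed in the same direction by less than 2-fold, so that 5 members differed at any size, beside 18.4% of all genes. The Peg10 call was close to the limit. It was lost with the replicate numbers as a block (-1.56, adjusted p = 0.05), with limma-voom (-1.5, adjusted p = 0.051), without DNMT TKO shEmpty replicate 2 (-1.63, adjusted p = 0.052) and without WT shEmpty replicate 1 (-1.44, adjusted p = 0.054). Without WT shKap1 replicate 1, the library with the highest Peg10 level, it was -1.14 ± 0.20 and called (adjusted p = 0.002). The Sgce call was lost without DNMT TKO shEmpty replicate 3 (-1.41, adjusted p = 0.06). Trim28 fell less in DNMT TKO, as given above, and its part in these differences was not tested.

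In TET TKO cells, 4 members were called up on knockdown, Peg10, Sgce, Mest and Ndn, where 8.05% of all genes were. Called down were 0 by edgeR, limma-voom and DESeq2, where edgeR called down 4.46% of all genes, and 0 members fell at an unadjusted p below 0.05. At any size 7 members passed, beside 30.4% of all genes, and with groups of 2 libraries 9 members did not overlap, beside 69.9%. Peg10 went from 39.2 and 35.9 CPM to 158 and 163 CPM, a log2 change of 2.10 ± 0.39 (adjusted p = 0.0018). Sgce went from 1.41 and 1.2 CPM to 3.52 and 3.08 CPM, a log2 change of 1.33 ± 0.33 (adjusted p = 0.0049). With shKap1, Peg10 in TET TKO stood just under the lowest WT shEmpty library, and Sgce lay within the range of WT shEmpty.

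Ndn rose from 5.36 and 5.07 CPM to 11.9 and 11 CPM, a log2 change of 1.13 ± 0.17 (adjusted p = 6.7e-05). Mest, which did not pass the test in WT, went from 118 and 125 CPM to 233 and 253 CPM, a log2 change of 1.00 ± 0.29 (adjusted p = 0.023). It stood exactly at the fold limit, and its call was lost when any of the 4 TET TKO libraries was left out, with adjusted p of 0.11 and 0.074 without shEmpty replicates 1 and 2 and 0.054 and 0.085 without shKap1 replicates 1 and 2. In these fits the lone library left is assumed to vary like the other groups. Under 2-fold, Plagl1 rose by 0.73 ± 0.20 (adjusted p = 0.016), Impact by 0.56 ± 0.12 (adjusted p = 0.002) and Snrpn by 0.37 ± 0.095 (adjusted p = 0.0069). Peg3 stood at 37 and 43.1 CPM and at 47.7 and 46.8 CPM, a log2 change of 0.24 ± 0.12 (adjusted p = 0.16).

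For the knockdown effect in TET TKO against that in WT, 0 members were called by edgeR, limma-voom and DESeq2, beside 4.21% of all genes by edgeR, 2.08% with the larger and 2.13% with the smaller change in TET TKO. At an unadjusted p below 0.05 there were 1 in each direction, Mest and Peg3, a threshold at which all genes were not counted. At any size 1 member differed, beside 9.69% of all genes. This was Peg3, with -0.93 ± 0.16 (adjusted p = 0.0011). Its difference passed 2-fold without WT shEmpty replicate 1 and without TET TKO shEmpty replicate 1, at -1.04 in each case. For Mest the difference was 0.94 ± 0.38 (adjusted p = 0.15). With limma-voom its adjusted p was 0.045 and with only the 4 groups compared in the fit 0.0012, at nearly the same size. For Peg10 the difference was -0.69 ± 0.48 (adjusted p = 0.44).

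The levels before knockdown also differed between lines. Compared with WT, both with shEmpty, DNMT TKO cells had lower Peg10, Sgce and Mest and higher Usp29 and Zim1, 5 calls in 10 where 16.3% of all genes were called, 8.05% lower and 8.23% higher. At any size 8 members passed, beside 43.6% of all genes, and 9 did not overlap, beside 50.8%. Peg10 was lower by -3.18 ± 0.33 (9.09-fold, adjusted p = 1.5e-05), Sgce by -2.61 ± 0.29 (6.12-fold, adjusted p = 9.9e-07) and Mest by -1.23 ± 0.24 (adjusted p = 0.0014). In the same comparison 4 of the 7 trophoblast markers were called lower and 1 higher, with a median of -1.8. Of the endoderm and mesoderm markers 2 of 8 were called higher and 1 lower, and of the fibroblast markers 1 of 8 tested higher and 0 lower. The part of these markers in the Peg10 difference was not tested. Mest stood at 155, 101 and 93.9 CPM in DNMT TKO, with replicate 1 apart. The median of 657 genes of chromosome 6 was -0.30 in this comparison, beside -0.031 over all chromosomes, and all 3 genes lie on chromosome 6. Relative to that median the values were -2.88, -2.31 and -0.92, the last under 2-fold. Of 22 neighbour genes tested, described below, 3 were called lower and 1 higher. The 3 were Ppp1r9a (-2.13 ± 0.18) and Asb4 (-2.05 ± 0.30) around Peg10, and Klf14 (-2.32 ± 0.60, on few reads) near Mest. Of 16 other paternally expressed genes tested, also described below, 3 were called lower and 6 higher, with a median of 0.91.

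Usp29 was higher in DNMT TKO by 2.22 ± 0.38 (adjusted p = 0.00013), with 46, 169 and 136 reads against 18, 22 and 32. Zim1 was higher by 2.00 ± 0.34 (adjusted p = 9.3e-05), with 41, 35 and 28 reads against 8, 7 and 11. In neither gene did the groups overlap. Peg3, in the same cluster, stood at 0.19 ± 0.098 (adjusted p = 0.12). Ndn was higher by 0.89 ± 0.15 (adjusted p = 8.2e-05), and Snrpn and Impact were lower by -0.29 ± 0.078 (adjusted p = 0.0054) and -0.36 ± 0.096 (adjusted p = 0.006), all under 2-fold. Plagl1 stood at 0.35 ± 0.16 (adjusted p = 0.11).

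TET TKO cells had 4 members called lower than WT, where 4.80% of all genes were called lower, 5.66% higher and 10.5% in either direction. Called higher were 0 by edgeR, limma-voom and DESeq2, and 0 at an unadjusted p below 0.05. At any size 7 members passed, beside 27.2% of all genes, and 9 did not overlap, beside 53.1%. The called genes were Peg10 at -2.60 ± 0.38 (adjusted p = 0.00039), Sgce at -1.72 ± 0.30 (adjusted p = 0.00029), Impact at -1.59 ± 0.11 (adjusted p = 3.3e-08) and Mest at -1.17 ± 0.27 (adjusted p = 0.0083). Of the trophoblast markers 2 of 7 were called lower and 0 higher in this comparison, with a median of -0.53. Of the endoderm and mesoderm markers 2 of 8 were called higher and 2 lower, and of the fibroblast markers 2 of 8 tested higher and 0 lower. The part of these markers was not tested. Impact stood at 111 CPM in both TET TKO shEmpty libraries against 313 to 378 CPM in WT. The Mest call was lost without TET TKO shEmpty replicate 1 (-1.13, adjusted p = 0.063). Under 2-fold, Plagl1 (-0.87), Peg3 (-0.55) and Snrpn (-0.28) were lower, and Usp29, Zim1 and Ndn did not pass the test. The WT shEmpty libraries serve as controls in both mutant comparisons, which are therefore not independent of each other. The chromosome 6 median was -0.023 here. Of 22 neighbour genes tested, described below, 3 were called lower and 1 higher. The 3 were Asb4 (-5.02 ± 0.52, on few reads), Pon2 (-1.56 ± 0.27) and Pon3 (-1.58 ± 0.36), all around Peg10. Of 16 other paternally expressed genes tested, also described below, 2 were called lower and 4 higher, with a median of 0.56. Lower levels in TET TKO were thus neither shared by most of that list nor confined to the members.

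Neighbours of the members were followed through a list of 26 genes of the same clusters, of which 24 were matched and 22 tested. On knockdown in WT, 6 of these rose at least 2-fold, where 10.8% of all genes did, and 5 of the 6 lie around Peg10. Another 2 fell at an adjusted p below 0.05, each by less than 2-fold. Besides the 5 genes around Peg10, the tested list held only Casd1 and Ppp1r9a there, so it was weighted towards that place. Asb4, an ankyrin repeat and SOCS box gene known as maternally expressed, starts 636.1 kb from Peg10 and went from 29 to 36 reads per library to 139 to 211 reads, a log2 change of 2.73 ± 0.22 (adjusted p = 1.6e-08). The paraoxonase genes Pon2 and Pon3 rose by 1.73 ± 0.21 (adjusted p = 2.9e-06) and 1.32 ± 0.26 (adjusted p = 0.00046). On the other side Calcr, the calcitonin receptor gene, 982.6 kb away, had 8 reads over the WT shEmpty group and 39 with shKap1 (2.48 ± 0.54, adjusted p = 0.001). Tfpi2, a serine protease inhibitor gene, had 1 read against 18.

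Apart from Sgce, the nearest of the listed genes on either side were not called. Casd1, at 146.5 kb on the far side of Sgce, changed by 0.52 ± 0.097 in WT (adjusted p = 0.00024), and Ppp1r9a, at 155.6 kb, stood at 0.40 ± 0.16 (adjusted p = 0.059). In DNMT TKO, Asb4 and Pon3 did not pass the test (0.53 ± 0.36 and 0.043 ± 0.26). Asb4 had few reads there, 24 over the shEmpty group and 32 over shKap1. With shEmpty it was already lower than in WT (-2.05 ± 0.30, adjusted p = 2.6e-05). The knockdown effects of Asb4 and Pon3 were smaller than in WT by -2.20 ± 0.44 (adjusted p = 0.0016) and -1.28 ± 0.37 (adjusted p = 0.022). Pon2 rose in DNMT TKO by 0.82 ± 0.22 (adjusted p = 0.0067), under 2-fold. Called up there were 4 of the 22, beside 10.1% of all genes. They were Klf14 and Atp10a, described below, Calcr, with 9 and 50 reads over the groups (2.54 ± 0.51, adjusted p = 0.00081), and Tfpi2, with 3 and 20 reads (adjusted p = 0.0078). In TET TKO 6 of the 22 were called up, beside 8.05% of all genes. Pon2 and Pon3 rose by 2.49 ± 0.28 (adjusted p = 3.5e-06) and 1.73 ± 0.39 (adjusted p = 0.0024), and Asb4 had 2 reads over the shEmpty group and 16 over shKap1. The others were Calcr, with 14 and 54 reads (adjusted p = 0.0015), Klf14, with 10 and 33 (adjusted p = 0.0055), and Tfpi2, with 0 and 6 (adjusted p = 0.022). Pon1 had at most 1 read in any library. Near Mest, Klf14 rose in WT by 1.83 ± 0.37 (adjusted p = 0.00055), from 27 to 78 reads over the group, while Mest itself did not pass the test. In DNMT TKO, Klf14 rose by 3.45 ± 0.53 (adjusted p = 7e-05), from 5 to 54 reads, and its effect differed from WT by 1.62 ± 0.70 (adjusted p = 0.13). Atp10a, a phospholipid transporter gene of the Snrpn domain named after its values were seen, had the opposite pattern to Asb4. It stood at 0.31 ± 0.20 in WT (adjusted p = 0.22) and rose by 1.45 ± 0.20 in DNMT TKO (adjusted p = 2.7e-05), a difference of 1.14 ± 0.28 (adjusted p = 0.0089). Of the 22 neighbours tested, 2 were called with a smaller and 1 with a larger effect in DNMT TKO than in WT, beside 2.48% and 4.66% of all genes.

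**Figure D3:**
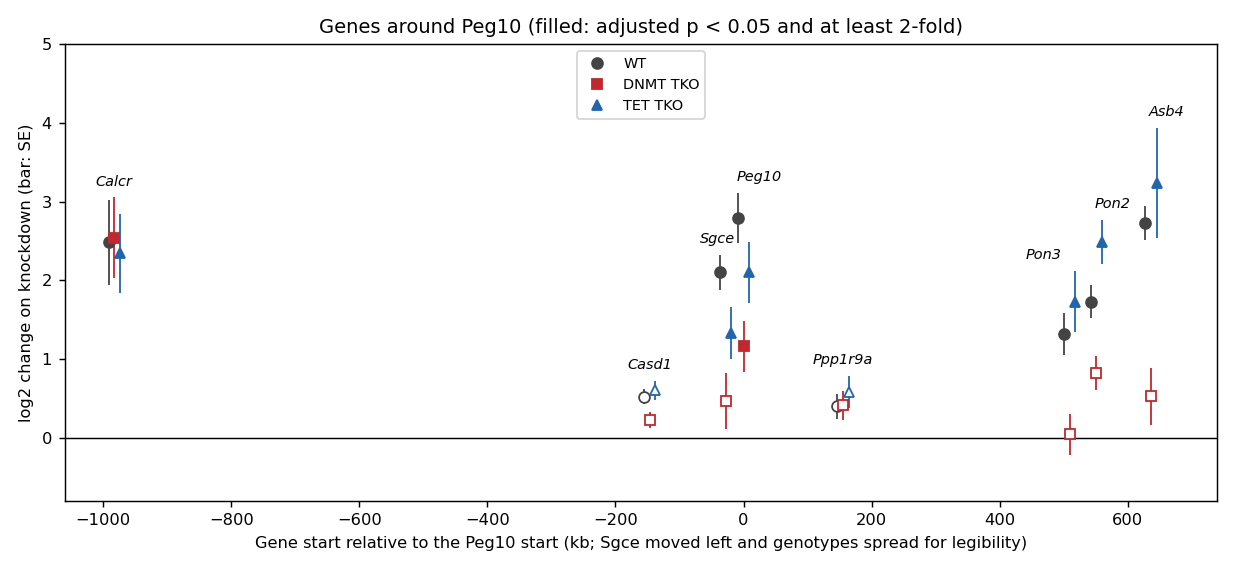
Log2 change on knockdown with its SE, for genes around Peg10, against the distance of their start from the Peg10 start in kb; colours are genotypes and filled symbols are calls, Tfpi2 being left out for its few reads. Peg10 and Sgce at 0, Pon3, Pon2 and Asb4 to the right and Calcr to the far left lie above 1 in WT, with Casd1 and Ppp1r9a near 0.5 between them.

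Of 21 other paternally expressed genes, 17 were matched and 16 tested. In WT knockdown 6 rose and 2 fell, beside 10.8% and 6.54% of all genes, with a median log2 change of 0.54. Inpp5f, a phosphoinositide phosphatase gene, rose by 1.87 ± 0.092 (adjusted p = 4.4e-11), from 11.1 ± 0.593 to 40.5 ± 1.67 CPM. Igf2, which encodes a fetal growth factor, rose by 3.02 ± 0.23 (adjusted p = 2.4e-07), and Magel2 as given above. Airn, a long non-coding RNA, had 1 read over the WT shEmpty group and 35 over shKap1, Rtl1 had 0 and 4, and Dlk1 rose by 1.16 ± 0.29 (adjusted p = 0.0029). Dio3 fell by 2.81 and Slc38a4 fell by 1.27 on the log2 scale (adjusted p = 9.1e-09 and 0.0015). In TET TKO 5 of the 16 rose and 3 fell, beside 8.05% and 4.46% of all genes. In DNMT TKO 3 rose and 1 fell, beside 10.1% and 2.41%, with Igf2 (4.61 ± 0.31, adjusted p = 1.5e-07) and Magel2 (2.46 ± 0.28, adjusted p = 2.4e-06) among the former. Inpp5f was already at 37.1 ± 2.11 CPM in DNMT TKO shEmpty and at 40.2 ± 3.87 CPM with shKap1, and its effect differed from WT by -1.75 ± 0.13 (adjusted p = 3.6e-08). Of the 16 genes, 4 were called with a lower log2 change on knockdown in DNMT TKO than in WT and 2 with a higher one, beside 2.48% and 4.66% of all genes. The 4 were Inpp5f, Magel2, Airn and Sfmbt2. The 2 were Igf2, which rose more (a difference of 1.59 ± 0.40, adjusted p = 0.015), and Dio3, which fell less (1.35 ± 0.28, adjusted p = 0.0022).

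The members did not share 1 pattern over the 16 libraries. Peg10 correlated with Snrpn (r = 0.916) and Mest (0.809), Peg3 with Impact (0.896), and Usp29 with Zim1 (0.731), whereas Mest and Usp29 ran opposite (-0.695). The genes most like Mest were Manba (0.978), Plaur (0.958) and Slc7a7 (0.957), and those most like Impact were Gm9855 (0.957), Tfpi (0.953) and Cyb5 (0.951). For Peg3 they were Armcx3 (0.946), Nrk (0.938) and Sdk1 (0.937). For Snrpn they were Synpo2l (0.974), Wnt8a (0.972) and Rc3h2 (0.964), and for Plagl1 Fchsd1 (0.947), 4930502E18Rik (0.935) and Orc4 (0.923). All values are Pearson's r over 16 libraries that share genotypes and hairpins, given as description.

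At the ICRs, 5hmC over input was higher with Kap1 knockdown in WT cells at all 6 regions, and for 4 of them the 95% interval of the change lay above 0. With 1 library per condition there is no test, and the intervals cover counting error only. Among KAP1 regions with at least 10 input reads in the 2 input libraries 26.6% had an interval above 0, and among H3K4me3 regions 12.4%. Intervals narrow with more reads, and the read numbers of these sets were not matched to those of the ICRs. Of the KAP1 regions within the ICRs, those of Peg10, Peg3 and Plagl1 had intervals above 0. Those of Mest, Snrpn and Impact had intervals that included 0. The median log2 change was 0.64 over KAP1 regions and 0.39 over H3K4me3 regions, so that most regions of either set stood above 0. The libraries held 4590132 (input) and 7824611 (5hmC) reads over all region sets for shEmpty, and 6522892 and 8817570 for shKap1.

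The Peg10 region had 67 reads of 5hmC and 59 of input with shEmpty, and 142 and 50 with shKap1. After scaling to the reads over all region sets this was a log2 change of 1.64 (95% interval 0.96 to 2.32). It was the one region of the 6 with less input per read of the region sets after knockdown, and on 5hmC reads alone its change was 0.90. Plagl1 went from 31 and 32 reads to 128 and 51, a change of 1.69 (0.85 to 2.53). Mest went from 39 and 66 to 106 and 104, a change of 1.11 (0.42 to 1.79), and Peg3 from 105 and 85 to 287 and 156, a change of 0.91 (0.41 to 1.41). On 5hmC reads alone these 3 stood at 1.84, 1.25 and 1.27, above Peg10.

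Snrpn and Impact did not stand apart from 0. The Snrpn region had 28 reads of 5hmC and 25 of input, then 47 and 44, a change of 0.27 (-0.69 to 1.23). Impact had few 5hmC reads in either state, 4 beside 23 of input and then 11 beside 45, a change of 0.66 (-1.01 to 2.32), so that a change was not detectable at this depth. Before knockdown the Impact region had the lowest 5hmC of the 6 relative to input, at -3.03 on the log2 scale, on 4 reads of 5hmC. The other 5 regions lay between -1.51 and -0.47.

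Within the Peg3 ICR the H3K4me3 region chr7:6682357-6683606, which spans the annotated Peg3 start, went from 27 to 129 reads of 5hmC, a change of 1.93 (0.98 to 2.87). Its neighbour chr7:6681599-6682331 went from 24 to 43 reads, with 7 and 19 reads of input, a change of -0.17 (-1.55 to 1.21). At the Peg10 ICR the KAP1 region chr6:4696550-4699498 changed by 1.49 (0.81 to 2.18) and the H3K4me3 region chr6:4697231-4698774 by 1.67 (0.73 to 2.60). The 3 KAP1-dependent H3K9me3 regions at the Peg10 ICR stood at 1.23 (0.28 to 2.17), 0.78 (-0.79 to 2.34) and 0.76 (-0.32 to 1.85), so that the last 2 intervals included 0. The KAP1 region within the Mest ICR stood at 0.73 (-0.25 to 1.72), an interval that also included 0, while the H3K4me3 region there stood at 0.87 (0.25 to 1.49). The Mest and Plagl1 ICRs thus had intervals above 0 while their transcripts did not pass the test in WT. The ratio of shKap1 to shEmpty was above 1 in all 3 pairs by number for both genes, at 1.04, 1.04 and 1.06 for Mest and 1.11, 1.25 and 1.19 for Plagl1, and edgeR's adjusted p was 0.86 and 0.075 in the fit with the numbers as a block. For Peg10 and Peg3 the transcripts rose too.

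These changes depended on the scaling. Scaled to the reads in KAP1 regions, Peg10 stood at 0.93 (0.24 to 1.61) and Plagl1 at 0.97 (0.13 to 1.81), Mest at 0.39 (-0.30 to 1.08), Peg3 at 0.19 (-0.30 to 0.69), Impact at -0.057 (-1.72 to 1.61) and Snrpn at -0.45 (-1.41 to 0.52). Of the other ICRs, 22 had at least 10 input reads, of which 19 were higher and 9 had an interval above 0, with a median of 0.88 beside 1.01 for the 6 members.

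**Figure D4:**
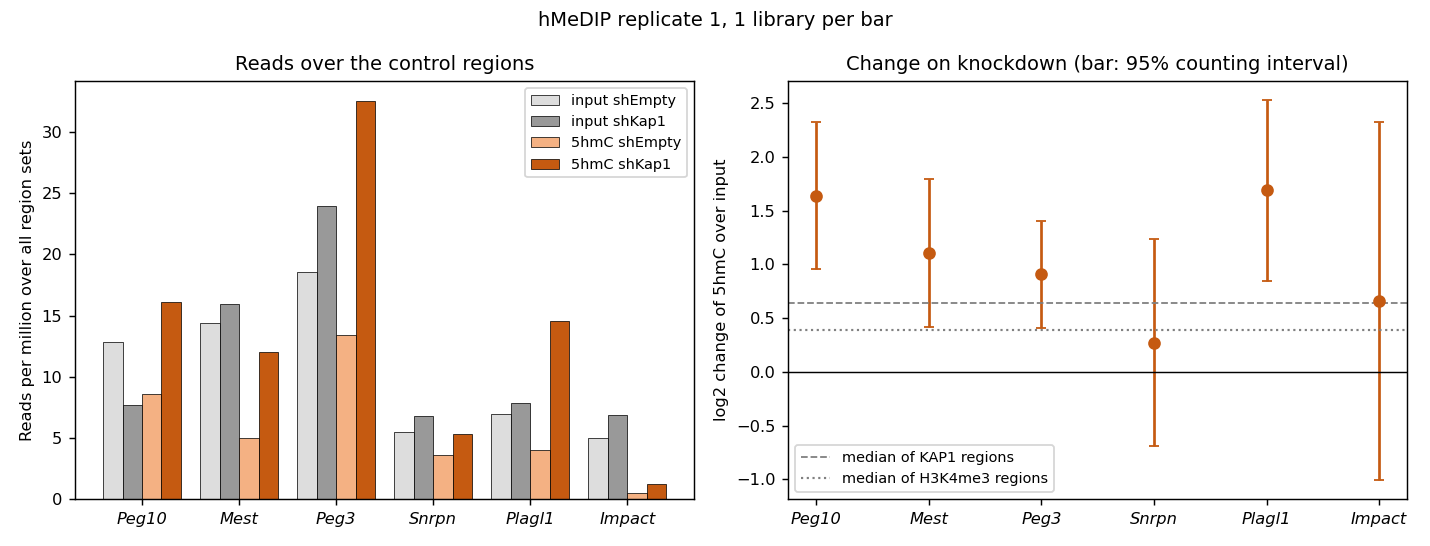
Left, reads over each ICR scaled to the reads over all region sets in the 4 libraries of hMeDIP replicate 1; right, log2 change of 5hmC over input on knockdown with 95% counting intervals, and the medians of KAP1 (0.64) and H3K4me3 (0.39) regions as lines. The intervals of Peg10, Mest, Peg3 and Plagl1 lie above 0, and those of Snrpn and Impact include it.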

How the data were processed

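The RNA files hold counts that the authors deposited per gene, made from single-end stranded reads. Per the methods, reads were aligned to mm9 and unique reads were counted with featureCounts. The ChIP-seq files hold a score per peak, as deposited by the authors. H3K4me3 peaks came from MACS 1.4. The methods name MACS and, for H3K9me3, SICER, without saying which called the H3K27me3 peaks. The hMeDIP files hold deposited counts of reads over fixed sets of mm9 regions. The 10 genes and all lists were chosen with earlier results of these data known. Of the listed genes, Snurf, Zfp264, Peg13, Kcnq1ot1, Zim2, Zim3, Tcstv1 and Tcstv3 were not analysed here.

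Genes with at least 16 reads over the 16 libraries were tested in edgeR 4.0.16 (R 4.3.3) by its quasi-likelihood test (robust, 6 groups, libraries scaled by TMM) with Benjamini-Hochberg adjustment over 20321 genes. CPM and RPKM use the same scaling, RPKM with the exon length of the files. A ± after a log2 change is its SE. The test was checked on simulated data. limma 3.58.1 and DESeq2 1.42.0 were alternatives. 5hmC changes are log2 ratios with 1 read added, scaled to reads over all region sets. Their 95% intervals follow Poisson counts. Overlaps needed 1 base. Sequences were read from NCBIM37 (mm9). Libraries of the same number deviated together (correlations over genes of 0.268 to 0.459 for WT shEmpty and shKap1, 0.192 to 0.557 for DNMT TKO, 0.296 to 0.495 for shEmpty of WT and DNMT TKO), so the numbers pair these. Those of shKap1 of WT and DNMT TKO were smaller for each number but also above 0, at 0.236, 0.158 and 0.0976. Libraries of unlike numbers were not compared. The main fit left the numbers out, and the fit with the numbers as a block used them. The pairing comes from the values. Genes named beyond the 10 were the targets of the hairpin and knockouts, Zfp57 and Zfp445, genes of 2 lists called in WT knockdown or in DNMT TKO against WT, Casd1, Pon1, Atp10a, Uhrf1 and Dppa3 (chosen after their values were seen), and the 3 genes most alike by Pearson's r. The 4 libraries of hMeDIP replicate 2, whose labels and file names disagree, entered no comparison. Files of repeat counts were not used.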

Additional observations from a re-analysis of the deposited data

Results flagged for a closer look

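The knockdown effect differed between DNMT TKO and WT for 5 of the 10 members in the interaction test of edgeR at an adjusted p below 0.05, beside 18.4% of all genes. The log2 differences were -1.62 for Peg10, -1.63 for Sgce, -1.10 for Peg3, -0.69 for Ndn and -0.59 for Impact, each with the smaller rise in DNMT TKO. Peg10 and Sgce share an ICR and are not independent of each other. Between TET TKO and WT the effect differed for 1 member, Peg3, by -0.93, beside 9.69% of all genes. Groups of 2 or 3 libraries are too small to look for single outlying samples.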

How the results depend on the processing

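Calls on the members rest on 2 or 3 libraries a group, and Usp29, Zim1 and Sgce on few reads. Without a fold threshold the members passing were 3 for DNMT TKO knockdown, 7 for TET TKO knockdown, 5 and 1 for the differences of DNMT TKO and TET TKO from WT in effect, and 8 and 7 for the levels of DNMT TKO and TET TKO against WT. limma-voom called 0 in DNMT TKO knockdown. Leaving out 1 library at a time gave 4 to 5 members called in WT knockdown, 0 to 1 in DNMT TKO, 3 to 4 in TET TKO, 2 to 3 and 0 to 1 for the 2 differences in effect, and 5 to 5 and 3 to 4 for the levels. The replicate block changed no call but that of Peg10 in the difference of DNMT TKO from WT (-1.56, adjusted p = 0.05). In the TET TKO groups the numbers gave a correlation of -0.0261.

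Values that changed sign were all uncalled. Leaving out 1 library at a time, Usp29 ranged from -0.20 to 0.092 in WT knockdown, from -0.63 to 0.59 in TET TKO knockdown and from -0.60 to 0.63 in the difference of the latter from WT. Mest ranged from -0.016 to 0.17 in WT knockdown, from -0.48 to 0.079 in DNMT TKO and from -0.54 to 0.00098 in their difference. In DNMT TKO knockdown Impact ranged from -0.092 to 0.072 and Peg3 from -0.0025 to 0.088, and Zim1 ranged from -0.25 to 0.11 in TET TKO against WT. With library totals alone Usp29 in WT knockdown was 0.024, with the chromosome median subtracted 0.054, and with limma-voom in TET TKO knockdown -0.027. With the chromosome median subtracted Zim1 in TET TKO against WT was 0.018. The cause was not tested.

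For 5hmC, scaling to KAP1 regions gave 0.93 for Peg10, 0.39 for Mest and 0.19 for Peg3, and leaving out the input gave 0.90 for Peg10. Counting H3K4me3 and H3K27me3 peaks above the median score of their file gave 5 and 1 member promoters in replicate 1, and 8 and 2 in replicate 2, where 8 and 2 had any peak in replicate 1 and 9 and 3 in replicate 2.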

Other observations

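The 4 libraries of hMeDIP replicate 2 carry labels that differ from the roles in their file names. Which are input and which enriched was therefore not assigned here, and each value stands alone. The library labelled input shEmpty had 64 reads over the Peg10 ICR, 42 over Mest, 88 over Peg3, 24 over Snrpn, 40 over Plagl1 and 5 over Impact. The library labelled input shKAP1 had 56, 87, 138, 41, 51 and 37 reads over the same regions. The library labelled shEmpty, without the word input, had 117, 99, 249, 46, 83 and 9, and the library labelled shKAP1 had 47, 86, 127, 39, 61 and 34. By their file names the 4 libraries, in this order, would be 5hmC shEmpty, input shEmpty, 5hmC shKap1 and input shKap1, and no comparison was made on either reading.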
